A study of Mus musculus with 4 samples.

Results

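Efferocytosis is the engulfment of dying cells. Of the genes that serve it, 10 were examined here in adult mouse testis: the bridging molecules Mfge8, Gas6 and Pros1, the receptor tyrosine kinases Axl, Mertk and Tyro3, the scavenger receptors Scarb1 and Cd36, and the engulfment factors Elmo1 and Dock1. They were taken by gene symbol from a deposited table of 25265 genes, and each symbol was found once. They were chosen by their role in efferocytosis and by the measured group difference of Mfge8 in these same libraries. All group differences of the 10 genes are therefore given as a description and support nothing further.

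The libraries were made from total RNA of testes of C57BL/6 mice at postnatal day 56, after depletion of ribosomal RNA. There were 2 libraries labelled control and 2 labelled Ythdf2-vKO, called vKO-labelled from here on. The series title places the Ythdf2 mutation in germ cells, and YTHDF2 is a protein that binds N6-methyladenosine (m6A) in RNA and promotes its decay. The promoter that drives the deletion, the exact genotype of the controls and the number of animals behind each library are not given in the sources used here. P-values thus measure only the spread between these libraries, which may be technical.

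In the seminiferous tubule, many germ cells die by apoptosis and every maturing spermatid sheds a residual body. Sertoli cells, the somatic nurse cells of the tubule, engulf both, and macrophages of the interstitium take up dying cells outside it. A dying cell exposes phosphatidylserine on its surface. MFGE8 binds this lipid and links it to integrins of the engulfing cell, while GAS6 and protein S (Pros1) link it to TYRO3, AXL and MERTK. ELMO1 and DOCK1 form an exchange factor that activates RAC1 and so remodels actin, and SCARB1 and CD36 bind lipids and phosphatidylserine directly.

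Total gene counts ran from 24862518 to 29561182 per library. Ythdf2 itself was at 1193 and 1604 counts in control versus 1774 and 1807 in the vKO-labelled pair. Its log2 fold change (0.35, SE 0.13, n = 2 per group) was thus not below 0, and edgeR gave an adjusted p of 0.238. A fit that combined a GC offset with a replicate block called it higher (0.40, adjusted p 0.0373 in edgeR). Every direction below is therefore that of the library labels. All 20 Sertoli cell markers listed for this work, all 17 of spermatocytes and all 13 of elongating spermatids passed the filter on low counts. No marker of these lists was at 0 counts in any library.

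The bridging molecules are shown first by sequence, since Mfge8, the only member called, is among them. The 250 bases upstream of each RefSeq start (mouse build GRCm38.p6) are printed in the direction of transcription, with each GC box (GGGCGG, read on both strands) in capitals. The window of Mfge8 is chr7:79149061-79149310 on the minus strand, that of Gas6 is chr8:13494536-13494785 on the minus strand, and that of Pros1 is chr16:62854057-62854306 on the plus strand.
Mfge8: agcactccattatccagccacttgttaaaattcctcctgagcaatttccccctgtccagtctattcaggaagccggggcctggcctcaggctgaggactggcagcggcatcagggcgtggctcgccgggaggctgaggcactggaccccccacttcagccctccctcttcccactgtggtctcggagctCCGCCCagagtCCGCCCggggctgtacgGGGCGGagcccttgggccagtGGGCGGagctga
Gas6: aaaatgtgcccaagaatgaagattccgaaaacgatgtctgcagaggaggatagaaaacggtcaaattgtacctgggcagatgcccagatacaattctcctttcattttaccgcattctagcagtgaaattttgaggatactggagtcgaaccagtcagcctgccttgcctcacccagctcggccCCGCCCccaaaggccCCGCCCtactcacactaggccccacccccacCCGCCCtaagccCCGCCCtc
Pros1: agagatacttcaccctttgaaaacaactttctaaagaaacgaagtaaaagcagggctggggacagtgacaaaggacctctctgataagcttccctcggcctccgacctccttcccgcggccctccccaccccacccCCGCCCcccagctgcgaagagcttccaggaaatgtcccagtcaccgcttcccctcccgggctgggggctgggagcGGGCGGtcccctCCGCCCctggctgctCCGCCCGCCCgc

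The Mfge8 window held 4 GC boxes, the Gas6 window 4 and the Pros1 window 5, in which the last pair overlap. RefSeq promoters were found for 9 of the 10 members, with 2 starts for Elmo1. A GC box was present in 9 of these 10 windows, against 32.7% of 32851 mouse promoter windows of the same length. This word holds only G and C, and no share matched for GC content was computed. The other motifs searched, on both strands, were the CCAAT box (held by 33.9% of all windows), the TATA box read as TATAA (22.8%), the site of GATA factors read as AGATAA (9.99%), the core site of SOX factors read as ACAAT (27.7%) and the site of NR5A1 read as AAGGTCA (4.08%). None of these was in the Mfge8 window. The SOX core occurred at 2 places in the Gas6 window, at 2 in that of Cd36 and at 1 in the second window of Elmo1. The TATA box occurred at 2 places in the first window of Elmo1, and the CCAAT box at 1 in that of Cd36. The GATA and NR5A1 sites were in none of the windows. The GC content of the Mfge8 window was 65.2%, that of Pros1 64.4% and that of Gas6 54.8%, with a median of 52.4% over all windows. Over the 10 windows of the members it ran from 43.2% for Cd36 to 73.2% for Tyro3. A motif match is a description of the letters and not of binding.

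Because YTHDF2 binds m6A, the transcripts were also searched for GGACT, a common form of the sequence in which this mark is placed. The longest protein-coding transcript of Mfge8 in GENCODE M21 (2125 nt) held 2 such sites, counted from its 5′ end. The site from base 1316 lies in the coding sequence and the site from base 1830 in the 3′ UTR. Both are printed with their neighbouring bases and GGACT in capitals.
Mfge8 coding site: ggtgtgcagtGGACTgtatatgagg
Mfge8 3′ UTR site: gcttgactcaGGACTgaagggagcc

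This density of 0.941 sites per kb lay below the median of 1.05 over 15844 protein-coding transcripts, of which 91.0% held at least 1 site. Of the members, Cd36 (1.47 per kb), Scarb1 (1.19) and Mertk (1.16) lay above that median. Gas6 held no site. The data do not show which of these sites carry the mark.

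Mfge8 (ENSMUSG00000030605) lies on the minus strand of chromosome 7, and spans bases 79133768 to 79149060 of GRCm38. It was counted at 1103 and 1746 reads in control, and at 3242 and 3061 in the vKO-labelled pair. In CPM, the count scaled to a common library size, its levels were 47.2 and 58.2 in control versus 121 and 113 in the vKO-labelled pair. For every gene below, the control replicates are given first, followed after "against" by the vKO-labelled replicates. Both vKO-labelled libraries lay above both control libraries. The means were 52.7 ± 7.81 and 117 ± 5.41 CPM (SD, n = 2 each), which is 2.22-fold, or a log2 fold change of 1.15 (SE 0.14). The adjusted p over 21132 tested genes was 0.00443 in edgeR. The authors' deposited table gives 1.15 (SE 0.16) and an adjusted p of 1.65e-09 for Mfge8, and calls 1.32% of 16448 genes at 0.05. In bulk tissue, more cells of a type and more RNA per cell cannot be told apart.

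At a threshold of 0.05 on the adjusted p, edgeR called 0.393% of the genes, with 0.279% higher and 0.114% lower. Among the 59 genes called higher, Mfge8 ranked 3 by mean CPM and 28 by fold change. It was called under all 13 alternatives that gave it an adjusted p, which ranged from 1.34e-16 to 0.00714, and its log2 fold change ran from 1.003 to 1.31. The GC content of its longest transcript was 56.2%, against a median of 48.9% for all genes tested. GC content correlated with how far a gene in a library lay from its mean over libraries, with a Spearman rho over 17817 genes of 0.0240 and -0.401 in control and 0.254 and 0.190 in the vKO-labelled pair. These values describe the libraries, since genes are not independent replicates. With an offset for GC content, the log2 fold change of Mfge8 was 1.01.

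**Figure D1:**
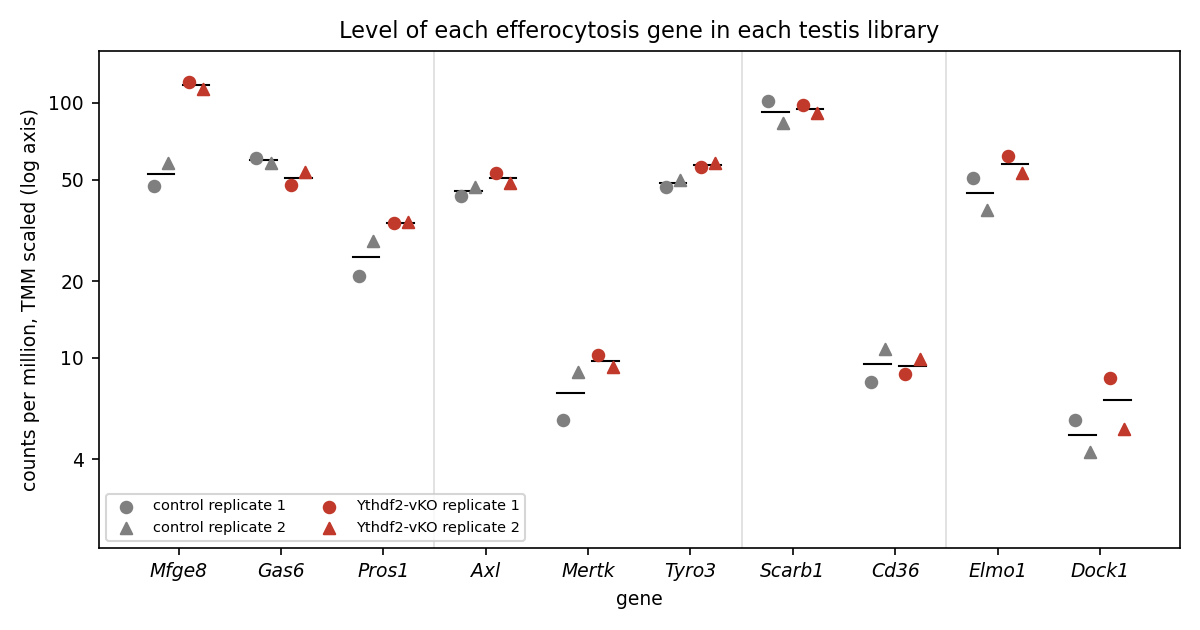
Level of each of the 10 genes in each library, in CPM scaled by TMM on a log axis, with control in grey, libraries labelled Ythdf2-vKO in red, circles for replicate 1, triangles for replicate 2 and black lines for group means. Mfge8 stands at 47.2 and 58.2 in control and at 121 and 113 in the vKO-labelled pair, while the other genes differ far less between groups.

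The other bridging molecules are ligands of the receptor tyrosine kinases. Gas6 (chromosome 8, 13465374 to 13494490) was counted 1420 and 1744 times in control, against 1269 and 1448. As CPM these were 60.7 and 58.2 against 47.4 and 53.7, so that both vKO-labelled libraries lay below both controls. The log2 fold change was -0.23 (SE 0.13), which did not pass at an adjusted p of 0.460 in edgeR. It was -0.15 without vKO replicate 1 and -0.38 with the GC offset, and over all alternatives the adjusted p ran from 0.0518 to 0.976. Tmem255b overlaps the end of Gas6 on the opposite strand and had 25 to 59 counts per library. The kit keeps strand, but whether the counting used it is not stated.

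Pros1 (chromosome 16, 62854307 to 62929346) encodes protein S, which also serves as an anticoagulant in plasma. Its counts in control were 490 and 860, against 901 and 920. The CPM were 20.96 and 28.7 against 33.7 and 34.1, with the groups apart and the control libraries further from each other than the others. This gave a log2 fold change of 0.45 (SE 0.16; edgeR p 0.0166 unadjusted, 0.242 adjusted). Mfge8 was thus the bridging molecule that was called, and the values of Gas6 and Pros1 lay on opposite sides of 0.

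The receptors of Gas6 and protein S had log2 fold changes from 0.17 to 0.42. Axl (chromosome 7, 25757273 to 25788705), which binds GAS6, had 43.0 and 46.8 CPM in control against 52.9 and 48.3 CPM. Tyro3 (chromosome 2, 119797733 to 119818104), which is known from Sertoli cells, had 46.7 and 49.9 CPM against 55.8 and 57.8 CPM. Mertk (chromosome 2, 128698956 to 128802894), the receptor most tied to engulfment by macrophages, had 133 and 265 counts against 275 and 249, or 5.69 and 8.84 CPM against 10.3 and 9.23 CPM. In all 3 genes the vKO-labelled libraries lay above the controls, with Mertk in control replicate 2 close to them. The log2 fold changes were 0.17 (SE 0.13), 0.23 (SE 0.13) and 0.42 (SE 0.22) for Axl, Tyro3 and Mertk. None passed, with adjusted p values of 0.623, 0.451 and 0.438 in edgeR. With the GC offset, Axl was at 0.077, Tyro3 at 0.12 and Mertk at 0.45. Axl was at 0.10 when either control replicate 1 or vKO replicate 1 was left out.

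The scavenger receptors overlapped between groups. Scarb1 (chromosome 5, 125277087 to 125341094), a receptor for high-density lipoprotein that Sertoli cells use for phosphatidylserine and Leydig cells for cholesterol, had 102 and 83.0 CPM in control against 97.7 and 91.5 CPM. This is a log2 fold change of 0.04 (SE 0.13; edgeR adjusted p 0.944). Cd36 (chromosome 5, 17781690 to 17888801), a fatty acid and phosphatidylserine receptor, had 8.04 and 10.8 CPM against 8.67 and 9.90 CPM. This is a log2 fold change of -0.03 (SE 0.20; edgeR adjusted p 0.973). Both signs depended on the setting: Scarb1 was at -0.10 without control replicate 2, and Cd36 was at 0.032 with scaling by library totals and at 0.078 with the GC offset.

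The engulfment factors both had positive values. Elmo1 (chromosome 13, 20090596 to 20608353) had 50.7 and 38.0 CPM in control against 61.7 and 53.0 CPM, and the groups did not overlap. This gave a log2 fold change of 0.37 (SE 0.16; edgeR p 0.0354 unadjusted, 0.313 adjusted). Dock1 (chromosome 7, 134670654 to 135173639) had 134 and 128 counts against 224 and 142, or 5.73 and 4.27 CPM against 8.37 and 5.26 CPM. Its groups overlapped, since replicate 2 of the vKO-labelled pair lay below control replicate 1. Its log2 difference, 0.45 (SE 0.26; edgeR adjusted p 0.480), was 0.079 without replicate 1 of the vKO-labelled pair and 0.75 without replicate 2. Gm45597 and Fam196a overlap Dock1 on the opposite strand with 114 to 143 and 73 to 111 counts per library, which is near the count of Dock1 itself.

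All 10 members passed the filter on low counts. Of these, 1 was called higher and 0 lower, beside the 0.393% called among all genes, and 3 were higher at an unadjusted p under 0.05, beside 14.1% of all genes in either direction (7.65% higher, 6.47% lower). The groups did not overlap in 6 members that were higher and 1 that was lower, beside 22.7% and 22.6% of all genes, or 45.3% in all. The median log2 fold change of the members was 0.30, against 0.00265 for all genes tested and 0.33 for the 20 Sertoli cell markers. The 9 members not called had log2 fold changes from -0.23 to 0.45.

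**Figure D2:**
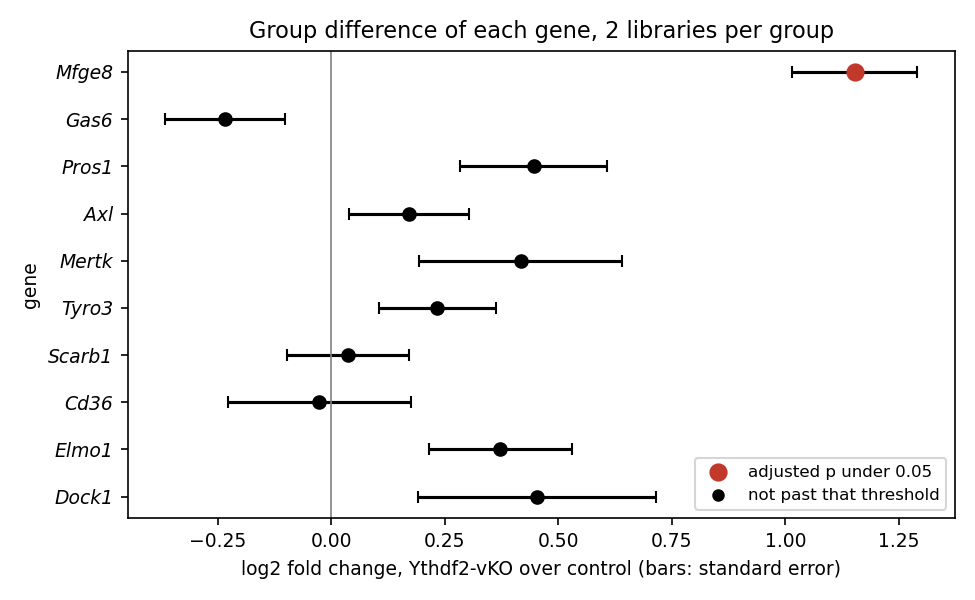
Log2 fold change of each gene in the libraries labelled Ythdf2-vKO over control, with bars of 1 standard error from edgeR and n = 2 libraries per group. Mfge8, in red, stands at 1.15, and the other 9 genes lie between -0.23 and 0.45.

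Levels of different genes were compared as CPM per kilobase of merged exons. In control, Gas6 was highest at 23.8 and 22.8, ahead of Mfge8 at 10.1 and 12.4 and Scarb1 at 11.95 and 9.76, which overlapped. In the vKO-labelled libraries, Mfge8 stood first at 25.8 and 24.2 and Gas6 second at 18.6 and 21.1. The order below was the same in all 4 libraries. Axl ran from 8.55 to 10.5, Tyro3 from 7.54 to 9.33 and Pros1 from 5.13 to 8.34, and Tyro3 overlapped both of the others. Elmo1 followed at 3.02 to 4.91, Cd36 at 2.24 to 3.01, Mertk at 1.31 to 2.37 and Dock1 at 0.458 to 0.897, and among these only Cd36 and Mertk overlapped. The order at the top depended on the length used. Per kilobase of the longest transcript, the mean over the 4 libraries was 36.5 for Mfge8, 30.2 for Scarb1 and 21.6 for Gas6, and 3 of the 10 members kept their rank.

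Mfge8 is known in the testis from Sertoli cells, so its level was set beside 20 Sertoli cell markers. All 20 markers had a log2 fold change above 0, with a median of 0.33, beside 50.3% of all genes above 0, and in 13 the groups did not overlap, beside 22.7% of all genes that were higher without overlap. Their summed level was 1351 and 1453 CPM in control against 1885 and 1697 CPM. Of the 20, 1 was called higher, beside 0.279% of all genes: Wt1, the transcription factor that maintains Sertoli cell identity (0.71, SE 0.13, adjusted p 0.0418 in edgeR). Amh, the hormone of immature Sertoli cells, had the only larger difference than Mfge8, at 1.31 (SE 0.38), and did not pass (adjusted p 0.163 in edgeR). Sox9 stood at 0.44 (SE 0.15), Cldn11 of the tight junctions at 0.51 (SE 0.12) and Kitl at 0.00226 (SE 0.16).

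Markers of several other testis cell types, though not of all, also lay mostly on 1 side of 0, with none called in edgeR. Of 10 Leydig cell markers, 9 were above 0 with a median of 0.38. At an unadjusted p under 0.05, 5 of them were higher, beside 7.65% of all genes. The summed level of the Leydig cell list was 452 and 531 CPM in control against 713 and 521 CPM. Only replicate 1 of the vKO-labelled pair thus lay above both controls in this sum. Among 13 spermatogonial markers, 12 were above 0 with a median of 0.28. The later germ cells lay on the other side. Of 17 spermatocyte markers, 3 were above 0 with a median of -0.19, and of 13 markers of elongating spermatids, 1 was above 0 with a median of -0.28, with 7 lower at an unadjusted p under 0.05, beside 6.47% of all genes. Round spermatid markers had a median of -0.03. Of 8 peritubular myoid cell markers tested, 4 were above 0, with a median of -0.01. Endothelial markers had 6 of 8 above 0 and a median of 0.40. All 4 erythrocyte markers tested were above 0, with a median of 0.76. The part of these differences in the value of Mfge8 was not tested.

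Relative to the mean of these markers, the log2 level of Mfge8 was 1.36 and 1.58 in control and 2.22 and 2.29 in the vKO-labelled pair. The difference was 0.79, or 1.72-fold, so that the group difference of Mfge8 exceeded that of the marker mean in these libraries. Gas6 lay on the other side by the same measure, with 1.72 and 1.57 in control against 0.867 and 1.21, a difference of -0.61. Scarb1 was at 2.47 and 2.09 against 1.91 and 1.98, while its own log2 fold change was 0.04. Leydig cells also use Scarb1, and this ratio does not show which cells hold a transcript. Elmo1 (1.47 and 0.959 against 1.25 and 1.19) and Pros1 (0.190 and 0.554 against 0.372 and 0.552) overlapped between groups. Tyro3 was at 1.346 and 1.351 against 1.10 and 1.31. No test was made of these ratios, because the contrast had served to choose the genes.

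**Figure D3:**
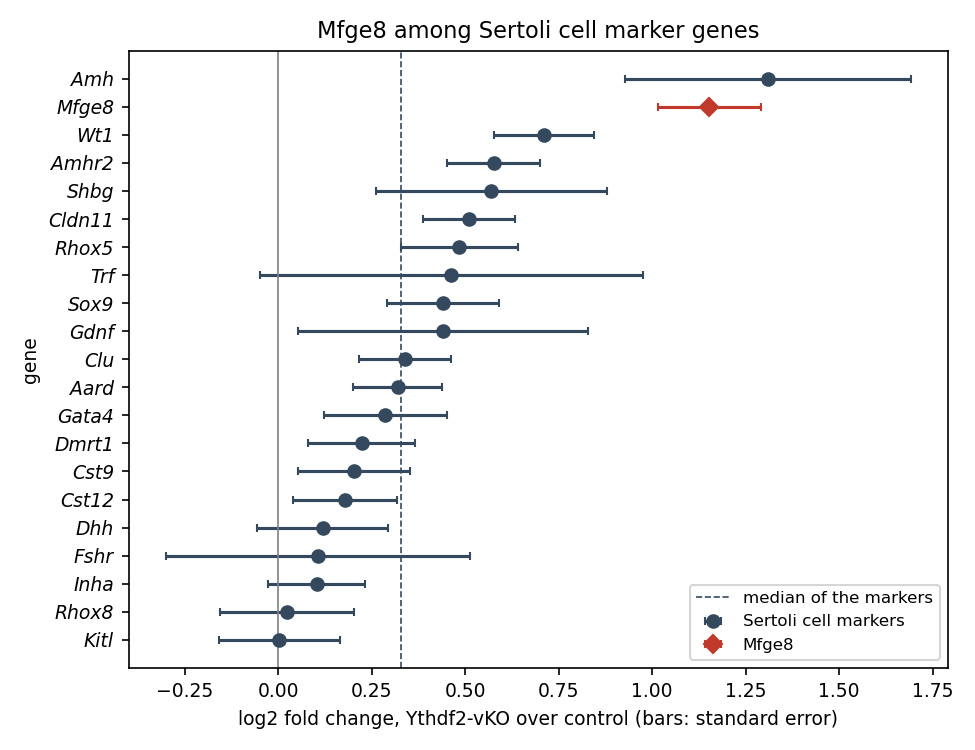
Log2 fold change of Mfge8 (red diamond) and of 20 Sertoli cell markers (dark circles) in the libraries labelled Ythdf2-vKO over control, with bars of 1 standard error and a dashed line at the marker median of 0.33. Mfge8 at 1.15 lies above every marker except Amh at 1.31.

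Several members are also expressed by macrophages, and the control libraries differed in macrophage markers. Of 12 such markers tested, 10 were lower in control replicate 1 than in control replicate 2. Csf1r, the receptor for the macrophage growth factor, had 2.82 and 7.94 CPM, and Ptprc, found on all white blood cells, had 0.685 and 3.04 CPM. Adgre1, at 4.41 and 3.94 CPM, and Aif1 were the exceptions. Of the 10 members, 6 were lower in control replicate 1, and the share over all genes was not computed. The summed level of the list was 392.4 and 424 CPM in control against 354 and 388 CPM, of which Aif1 alone made up 344, 340, 278 and 322 CPM. No marker tested was at 0 counts in any library.

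Mertk, Pros1 and Cd36 were the members that lay furthest above control replicate 1 in the other control library, by 0.64, 0.45 and 0.43 on the log2 scale. Mfge8 was 0.30 higher there, and Elmo1 and Dock1 were lower, at -0.42 and -0.43. Without control replicate 2, the log2 fold change was 0.78 for Mertk (adjusted p 0.0418 in edgeR), 0.69 for Pros1 (adjusted p 0.00375) and 0.21 for Cd36. Without control replicate 1, the values were 0.13, 0.23 and -0.23. Over all alternatives the adjusted p ran from 0.0418 to 0.936 for Mertk and from 0.00375 to 0.772 for Pros1. Elmo1 had the opposite order, at 0.59 without control replicate 1 (adjusted p 0.00389 in edgeR) and 0.18 without control replicate 2, with a range of adjusted p from 0.00389 to 0.936. Fits with a single library left in a group assume that it varies like the other group. Mfge8 stayed between 1.003 and 1.31 in the 4 such fits. The control libraries also differed in the correlation with GC content (Spearman rho 0.0240 and -0.401). The longest transcripts of Cd36, Pros1 and Mertk held 38.4%, 43.4% and 48.1% GC, and those of Elmo1 and Dock1 46.9% and 48.6%. The parts of the macrophage difference and of GC content in these results were not tested.

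**Figure D4:**
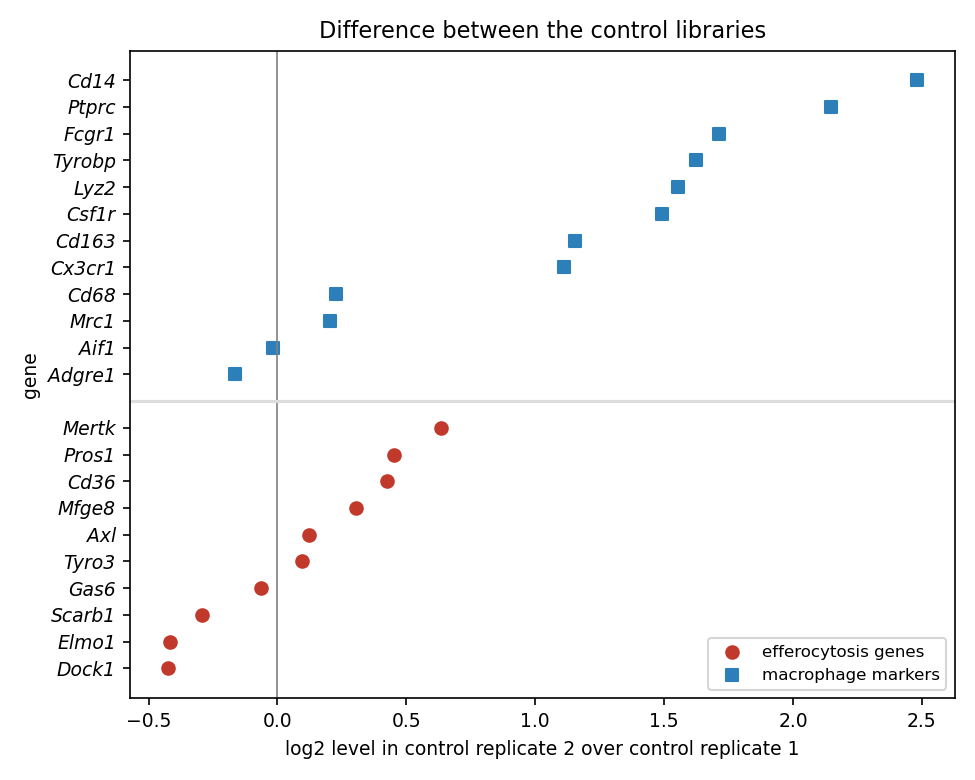
Log2 level in control replicate 2 over control replicate 1, for the 10 efferocytosis genes (red circles) and 12 macrophage markers (blue squares). Mertk at 0.64 lies furthest right of the 10 genes, while 10 of the 12 markers lie right of 0.

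The wider pathway was read from 6 lists of other genes of apoptotic cell clearance, with 96 genes in all, of which 86 were tested. None was called in edgeR at an adjusted p under 0.05, beside 0.393% of all genes. At an unadjusted p under 0.05 there were 13 higher and 2 lower, or 17.4% of the 86, beside 14.1% of all genes. A DESeq2 Wald test called 3 genes higher, which were Ucp2, Ctsl and Stab1, beside 0.833% of the 16448 genes to which it gave an adjusted p. The median log2 fold change of the 86 genes was 0.14, against 0.00265 for all genes. Medians of the cell type marker lists ran from -0.28 for elongating spermatids to 0.76 for erythrocytes, with Sertoli cells at 0.33.

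Genes for lipid handling after engulfment had a median of 0.25, with 13 of 15 above 0. Of the 15, 5 (33.3%) had an unadjusted p under 0.05, beside 14.1% of all genes. The order of the list medians depended on the libraries used and on the GC offset. Without control replicate 2, the median was 0.27 for lipid handling and 0.47 for bridging molecules, and without control replicate 1 it was 0.19 for lipid handling, 0.29 for the other receptors and -0.11 for bridging molecules. Without vKO replicate 1, the median was -0.016 for engulfment signalling, -0.037 for bridging molecules and -0.031 for signals on the dying cell. In that fit it was 0.27 for lipid handling, 0.17 for the other receptors and 0.12 for genes of the phagosome. With the GC offset, bridging molecules were at -0.14 and the other receptors at 0.11, and the remaining lists lay between 0.025 and 0.23. Ucp2, a mitochondrial carrier known to rise in phagocytes that have taken up dying cells, had 27.9 and 27.6 CPM in control against 45.6 and 43.3 CPM. Its log2 difference of 0.68 (SE 0.13) just missed the threshold, with 0.0513 as its adjusted p in edgeR, and it was called under 6 of the 9 alternatives that kept all libraries. Abca1, which exports cholesterol, had 28.4 and 29.4 CPM against 50.3 and 37.3 CPM (0.60, SE 0.16, adjusted p 0.128 in edgeR).

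Among genes of the phagosome, 14 of 19 were above 0 with a median of 0.13. Of the 19, 4 (21.1%) had an unadjusted p under 0.05, beside 14.1% of all genes. Ctsl, a lysosomal protease abundant in Sertoli cells, had 216 and 255 CPM in control against 377 and 329 CPM (0.59, SE 0.13, adjusted p 0.0819 in edgeR). Tfeb, a transcription factor of lysosomal genes, had 5.13 and 4.27 CPM against 7.10 and 9.12 CPM (0.79, SE 0.22, adjusted p 0.151 in edgeR). Both genes were higher without overlap of the groups, as were 22.7% of all genes.

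Of 12 other engulfment receptors tested, 8 were above 0 with a median of 0.21. Beside 14.1% of all genes, 8.33% of this list, or 1 gene, had an unadjusted p under 0.05. That gene was Stab1, a phosphatidylserine receptor of macrophages and sinusoidal endothelium, with 4.19 and 5.54 CPM in control against 11.3 and 8.19 CPM (0.99, SE 0.23, adjusted p 0.0939 in edgeR). The endothelial marker list summed to 42.4 and 31.9 CPM in control against 54.2 and 47.2 CPM, and its part in the value of Stab1 was not tested. The integrin chains that bind MFGE8 belong to this list. Itgav had 5.95 and 6.80 CPM in control against 8.97 and 7.71 CPM (0.38, SE 0.20, adjusted p 0.429 in edgeR). Its partners Itgb5 (0.03, SE 0.13) and Itgb3 (-0.42, SE 0.39) were looked up after the values had been seen, and neither passed, with adjusted p values of 0.959 and 0.693 in edgeR.

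In the list of engulfment signalling, 14 of 19 genes were above 0 with a median of 0.09. Bcar1, a scaffold upstream of the ELMO and DOCK complex, stood at 0.44 (SE 0.18) and Vav1, an exchange factor of blood cells, at -0.47 (SE 0.19), with adjusted p values of 0.294 and 0.296 in edgeR. Among other bridging molecules and opsonins, 6 of 9 were above 0 with a median of 0.06. Anxa5, which binds phosphatidylserine, had 4.66 and 8.84 CPM in control against 13.5 and 10.2 CPM (0.80, SE 0.28, adjusted p 0.236 in edgeR). Edil3, the closest relative of Mfge8 in domain structure, had 7 to 18 counts per library and stood at -0.79 (SE 0.61, adjusted p 0.619 in edgeR).

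Signals on the dying cell were divided evenly, with 6 of 12 above 0 and a median of 0.04. Xkr9, a phospholipid scramblase, had 33 and 21 counts against 9 and 12 (-1.41, SE 0.57, adjusted p 0.287 in edgeR). Cd47, which inhibits engulfment, had 9.50 and 10.04 CPM against 11.99 and 13.2 CPM (0.36, SE 0.17, adjusted p 0.373 in edgeR).

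**Figure D5:**
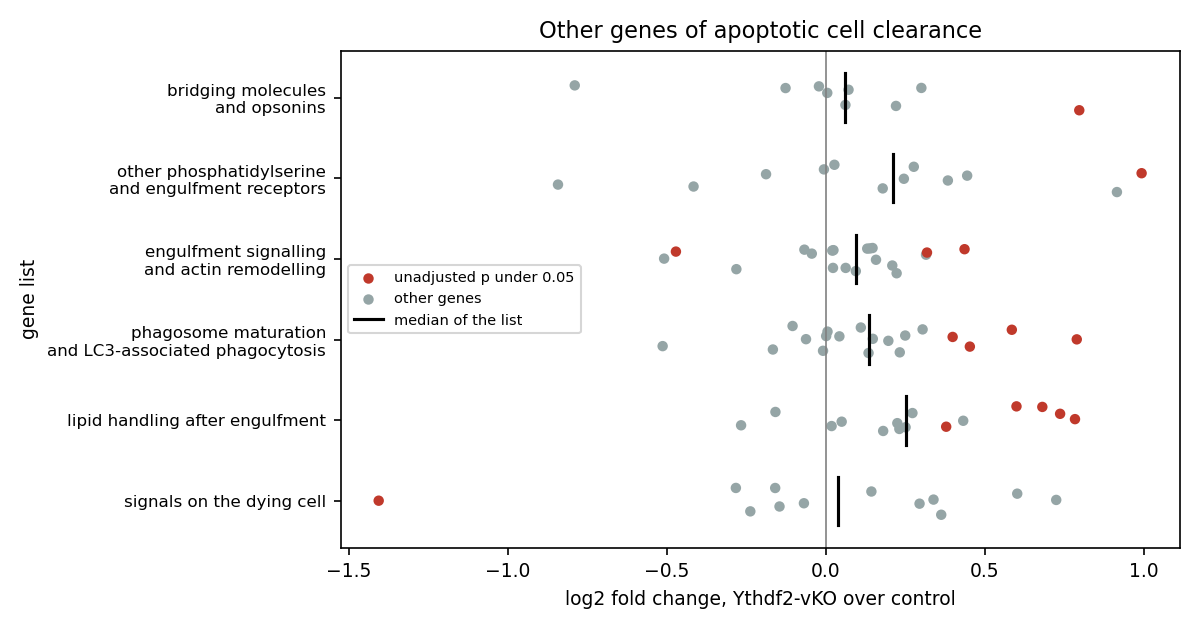
Log2 fold change of the 86 tested genes in 6 lists of other clearance genes, in the libraries labelled Ythdf2-vKO over control, with red points at an unadjusted p under 0.05, grey points for other genes and a black line at each list's median. The medians run from 0.04 for signals on the dying cell to 0.25 for lipid handling.

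The genes whose pattern was most like that of Mfge8 were found by the root mean square difference in log2 CPM, centred on each gene's mean, over the 4 libraries and 10352 genes with a mean of at least 10 CPM. The closest was Cpe, carboxypeptidase E, at a difference of 0.0448. Its levels were 51.9 and 65.3 CPM in control against 140 and 120 CPM. Gpc4, a cell-surface glypican, followed at 0.0744, then Arhgap31 at 0.0942. Tnip1, an inhibitor of NF-kappaB signalling, stood at 0.131 and Dpysl4, of the dihydropyrimidinase-like family, at 0.138. Their log2 fold changes ran from 0.98 for Arhgap31 to 1.15 for Cpe. A likeness over 4 libraries is mostly the group difference itself.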

How the data were processed

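The submitters' processing notes name HISAT2 2.1.0 and HTSeq 0.6.1p1. The genome build, annotation and strand setting are not given in the sources used here. The authors deposited raw counts per gene for 4 libraries, and the lowest total of a gene was 10. They also deposited a mean normalized count (a signal), log2 fold changes with standard errors, and p-values. Recomputing that mean from the counts checked the columns, with a largest relative difference of 4.9e-10. Replicates differed by more than sampling noise (chi-square per degree of freedom 21.2 in control, 8.41 in vKO), so none were merged.

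Counts were tested with edgeR 4.0.16 (R 4.3.3): TMM scaling, filterByExpr, a robust quasi-likelihood fit on genotype, prior count 0.125, Benjamini-Hochberg adjustment over 21132 genes, threshold 0.05. The standard error is the absolute log2 fold change over the square root of F. The code was tested on simulated data. Alternatives were other scalings and filters, DESeq2 1.42.0, a GC offset, a replicate block and leaving out each library. Reads carry no molecular identifiers. Coordinates, lengths and GC content come from GENCODE M21 (GRCm38), by identifier.

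The members and lists were chosen with earlier results of these data known. All members were named. From each pathway list, called genes were named, or else the 2 with the smallest p, together with the 5 genes most like Mfge8.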

Additional observations from a re-analysis of the deposited data

How the results depend on the processing

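Mfge8 kept its direction and its call under every alternative run. Its difference relative to the Sertoli markers was 0.785 with the marker mean and 0.895 with the marker median. It was 0.822 without Amh, Kitl and Gdnf. Library scaling cancels in this ratio, so the fit with library totals alone could not change it. Counts of calls moved. Over all genes, higher and lower calls, 59 and 24, were 181 and 37 with library totals alone, 137 and 80 with a DESeq2 Wald test, 89 and 67 with the GC offset, 8 and 2 at an adjusted p under 0.01, and 15 were lower in the fit without robust estimation. The median of all genes was 0.0674 with library totals alone.

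Both groups use replicate numbers 1 and 2 with no stated meaning. The correlation within a number, 0.108 over only 2 pairs, was not taken as pairing. The replicate block gave 627 higher and 390 lower, and 284 and 305 together with the GC offset. Members called higher were then 2 and 3, Mfge8 with Pros1 (adjusted p 0.0424 and 0.0276) and, in the latter, Elmo1 (0.0385); Ythdf2 was called there too (0.0373). Pathway genes called higher were 7 and 4 in these fits, 3 with library totals alone, 3 with DESeq2 and 1 each with no filter, with at least 10 counts in every library and with the GC offset.

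Leaving out 1 library gave 30 higher genes (without vKO replicate 1) to 1048 (without control replicate 1), 5 lower (without vKO replicate 1) to 523 (without control replicate 2), 1 to 3 members called higher, and 0 to 11 pathway genes (9 and 11 without control replicates 1 and 2). Scarb1, at -0.10 to 0.18 over these fits, reversed without control replicate 2 (-0.10) and without vKO replicate 1 (-0.012). Cd36, at -0.23 to 0.21, reversed with library totals alone (0.032), the GC offset (0.078), that offset with the replicate block (0.085), without control replicate 2 (0.21) and without vKO replicate 1 (0.067). With the longest transcript as length, 3 of 10 members kept their rank. The cause of these changes was not tested, apart from the stricter threshold, which passes fewer genes by construction. With 2 libraries per group, the SDs are imprecise, and Mertk, Cd36 and Dock1, at 128 to 324 counts, are the least precise members.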
